A study of Mus musculus with 6 samples.

Results

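Accessible chromatin was described at 10 genes that move, store and sense iron or act on heme in blood leukocytes: Tfrc, Slc40a1, Fth1, Ftl1, Slc11a1, Ireb2, Aco1, Blvra, Blvrb and Spic. They were chosen by name among 78252 annotated mouse genes. A region belonged to a gene if the summit of a peak lay in the gene body or within 3 kb of one of its annotated starts. This gave 15 regions of 62876 in the series, and 9 of these 15 carried a peak in all 6 libraries, as did 23970 regions of the series. Of the 10 genes, 9 had at least 1 region, and Spic had none.

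The libraries came from ATAC-seq, in which the Tn5 transposase cuts and tags open DNA, on peripheral blood leukocytes left after red cell lysis. The mice were C57BL/6j males, 8 weeks old when bought. The 3 control libraries came from mice in normoxia, and the 3 libraries of high-altitude de-acclimatization (HADA) came from mice moved to normoxia after 28 days in a hypobaric hypoxia chamber. The day of blood sampling after the chamber was not given for these libraries in the sources used here, nor whether a library came from 1 mouse, so p-values measure the spread between libraries, which may be technical. The cells were not sorted, and the text of the study names them both as leukocytes and as mononuclear cells. In a mixture of cells, fewer cells of a type and less open chromatin per cell cannot be told apart.

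Cells take up transferrin-bound iron through the transferrin receptor (Tfrc), keep surplus iron in ferritin shells of heavy (Fth1) and light (Ftl1) chains, and release it through ferroportin (Slc40a1). The iron regulatory proteins encoded by Aco1 and Ireb2 bind iron-responsive elements in the messenger RNAs of such genes when iron is scarce. Macrophages that clear old red cells open heme with heme oxygenase, and biliverdin reductase A (Blvra) then turns biliverdin into bilirubin. Biliverdin reductase B (Blvrb) reduces biliverdin beta and flavins. Slc11a1 (NRAMP1) pumps metal ions out of the phagosome of neutrophils and macrophages, and Spic is a transcription factor of red pulp macrophages.

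The control lists held 41475, 41214 and 34045 peaks and the HADA lists 44401, 44044 and 45799. The level of a region is given as the number of fragments at the summit, solved from the deposited fold and p-value, divided by the genome-wide background of the library (1.69 to 2.05 fragments in control and 1.99 to 2.34 in HADA). Groups were compared with limma on log2 pileups centred on the median shared region, and a region was called at a Benjamini-Hochberg adjusted p under 0.05 over all 23970 shared regions. The median log2 difference of the shared regions, HADA minus control, was 0.34 without the centring and −0.04 with it. Centring subtracts the median of each library, so it lowers every difference by the same amount, at Tfrc from 0.60 to 0.23. Control 3 had the fewest peaks, and in it the 6 B cell marker promoters summed to 20.8 times background against 99.3 and 163 in the other controls. Values without control 3 stand beside the results that it moved by over 1.5 times and beside most of the main ones.

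Stretches of 121 bases of the strongest Slc11a1 region and of the Blvra and Blvrb regions follow, since these hold the largest called differences at gene starts and, in Blvra and Blvrb, interior sites seen in only some libraries. All lie outside annotated exons and are written on the plus strand of GRCm39. Capitals mark CpG pairs, except in the interior region of Blvrb, where they mark an overlapping antioxidant response element (TGACNNNGC, read here on the minus strand) and E-box (CACGTG).
Slc11a1 start, intron, chr1:74414481-74414601: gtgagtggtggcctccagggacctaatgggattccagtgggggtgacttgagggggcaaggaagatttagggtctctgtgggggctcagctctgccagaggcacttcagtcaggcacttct
Blvra start, upstream, chr2:126912400-126912520: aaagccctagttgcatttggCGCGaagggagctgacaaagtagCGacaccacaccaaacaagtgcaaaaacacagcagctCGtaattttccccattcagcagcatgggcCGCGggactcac
Blvra, intronic site of control libraries, chr2:126922030-126922150: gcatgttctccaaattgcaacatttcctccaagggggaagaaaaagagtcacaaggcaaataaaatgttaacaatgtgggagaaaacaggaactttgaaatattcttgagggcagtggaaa
Blvra, intronic site of HADA libraries, chr2:126928350-126928470: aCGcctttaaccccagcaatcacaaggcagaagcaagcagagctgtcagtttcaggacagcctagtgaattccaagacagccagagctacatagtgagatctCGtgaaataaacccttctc
Blvrb start, upstream, chr7:27147154-27147274: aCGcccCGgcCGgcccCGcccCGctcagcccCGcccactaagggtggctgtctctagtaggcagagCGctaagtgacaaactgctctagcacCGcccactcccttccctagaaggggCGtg
Blvrb, intronic site, chr7:27154267-27154387: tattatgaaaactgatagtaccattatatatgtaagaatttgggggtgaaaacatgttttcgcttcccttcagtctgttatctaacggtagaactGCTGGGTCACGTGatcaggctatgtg
The Slc11a1 stretch held 0 CpG pairs, against 6 in the Blvra start stretch and 9 in the Blvrb start stretch. Within 100 bp of the summits, the start regions of Fth1, Blvra, Tfrc, Ireb2, Slc40a1, Blvrb and Ftl1 held 11 to 23 CpG pairs, that of Aco1 held 7 and that of Slc11a1 held 2.

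Of the 9 member regions tested, 3 rose in HADA and 2 fell. The regions that rose were the starts of Aco1, Blvra and Blvrb, and the regions that fell were both regions of Slc11a1. The background was 18.4% of all shared regions called higher and 24.5% called lower (4417 and 5862 of 23970, and 1379 and 2946 of 24613 without HADA 2). Among promoter regions of protein-coding genes, 21.8% were called higher and 8.32% lower. The median centred log2 difference of the 8 member start regions was 0.10, against 0.12 over 9965 promoter regions of protein-coding genes. After centring, no HADA library fell to the level of a control at the starts of Tfrc, Aco1, Blvra and Blvrb, against 29.3% of shared regions. The reverse held at both Slc11a1 regions and the Fth1 start, against 31.2%.

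**Figure D1:**
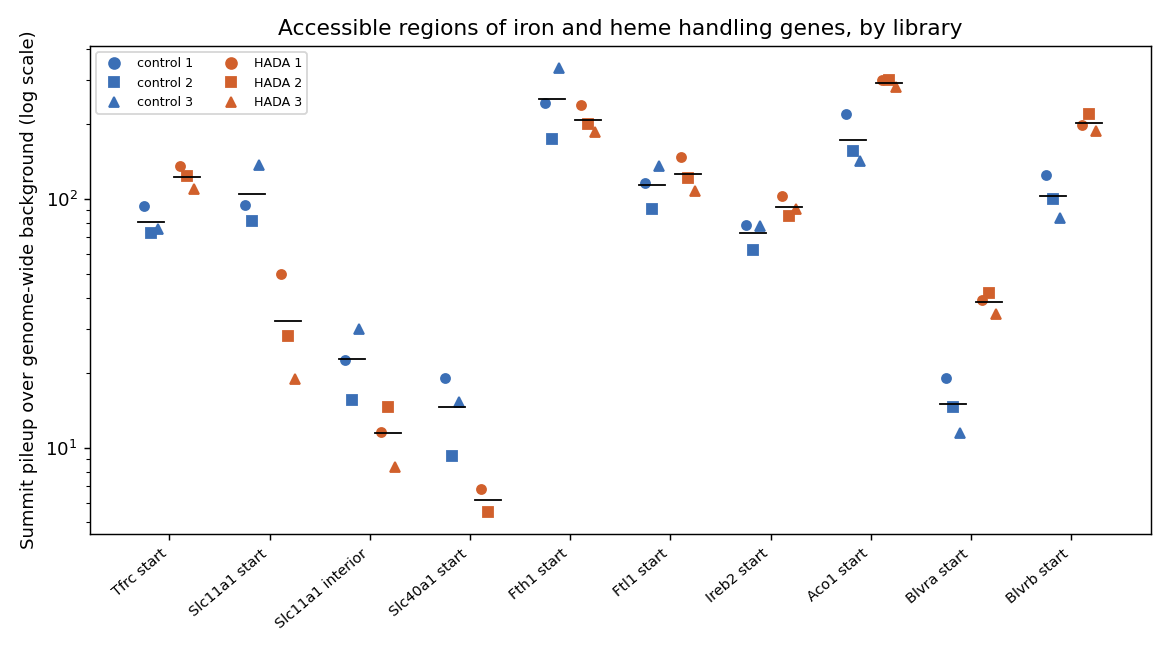
Summit pileup over the genome-wide background of the library (log scale) at 10 regions of the iron and heme genes, with 1 point per library and a bar at the mean of the group. The 3 HADA points lie above the 3 control points at Blvra, Blvrb, Aco1, Tfrc and Ireb2 and below them at both Slc11a1 regions, and HADA 3 has no point at Slc40a1 because no peak was listed there.

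Which member regions passed the threshold depended on the scaling. With the pileup over background not centred, 4 member regions were called higher and 2 lower. With quantile normalisation the counts were 3 and 3, and with centring on promoter regions, chosen after seeing the data, 2 and 3. Over all shared regions the share of calls that were higher was 43.0% in the main fit, 64.6% without centring, 56.1% with quantile normalisation, 56.8% on ranks of the deposited fold and 27.1% with centring on promoters.

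Slc11a1 gave the largest difference among the 9 tested member regions. Its start region (chr1:74413991-74414967, summit in an intron 204 bp into the gene) stood at 94.8, 81.3 and 137 times background in control and at 49.99, 28.1 and 18.9 times in HADA. Every HADA library was below every control library, and control 3 was the highest. The mean was 104 ± 28.9 in control and 32.3 ± 15.97 in HADA (SD, n = 3 each). The centred log2 difference was −2.15 ± 0.33 (SE, limma adjusted p = 0.0063), a level 4.43-fold higher in control. Without control 3 it was −1.93 (limma adjusted p = 0.0012), and on the log2 of the deposited fold −0.54 (limma adjusted p = 0.041).

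A second Slc11a1 region (chr1:74420465-74421139) had its summit in an exon, 6647 bp into the gene and 140 bp from the start of an annotated transcript. It stood at 22.5, 15.6 and 30.1 times background in control and at 11.5, 14.6 and 8.35 times in HADA. Control 2 and HADA 2 were close to each other, and the groups did not overlap. It fell by 1.35 ± 0.31 on the centred log2 scale (SE, limma adjusted p = 0.011). Without control 3 it was −1.11 (limma adjusted p = 0.0082). The call was lost on ranks of the deposited fold (−0.79, limma adjusted p = 0.16) and on its log2 (−0.60, limma adjusted p = 0.092). The region lost its place in the test when only peaks with a −log10 q of at least 5 or an equal number of peaks per library were kept.

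The 2 Slc11a1 regions changed beside the promoters of neutrophil and monocyte markers. All 4 neutrophil marker promoters tested (S100a8, Csf3r, Cxcr2, Mmp9) fell, with a median log2 difference of −1.75, and without control 3 all 5 then testable fell, with a median of −1.67. Only 3 of the 4 were called lower without centring, without the variance trend, and without control 1, HADA 1, HADA 2 or HADA 3. On ranks of the deposited fold their median difference was 0.013. The 7 neutrophil markers summed to 258, 161 and 409 times background in control and to 129, 113 and 74.3 times in HADA, with Camp listed in no library. All 3 monocyte marker promoters tested (Csf1r, Cx3cr1, Cd14) fell as well (1 of 3 without centring, 2 of 3 without HADA 2), with a median of −1.11 and sums of 120 to 178 against 87.9 to 115 times background. Of the 3 monocyte markers without a peak in every library, Lyz2 was lower as well, at 30.8, 24.8 and 23.5 times background in control and at 8.97 and 11.0 times in HADA 1 and HADA 2, with no peak in HADA 3. Ly6c2 stood at 23.7 and 14.6 times background in control 1 and control 2, with no peak in control 3, and at 41.9, 40.7 and 33.4 times in HADA, and Ccr2 had a peak in 1 control and 3 HADA libraries. Without control 3, 4 monocyte markers were testable, and 3 fell and 1, Ly6c2, rose. On the deposited fold and its rank none of the tested neutrophil, monocyte and B cell marker promoters was called. The tissue macrophage markers Vcam1, Timd4 and C1qa had no promoter peak in any library, and the 5 markers of that list summed to 10.7 to 17.2 times background in control and 6.84 to 10.6 in HADA. The order of the libraries by Slc11a1 level was also their order by the neutrophil sum. The part of cell composition in the Slc11a1 difference was not tested.

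**Figure D2:**
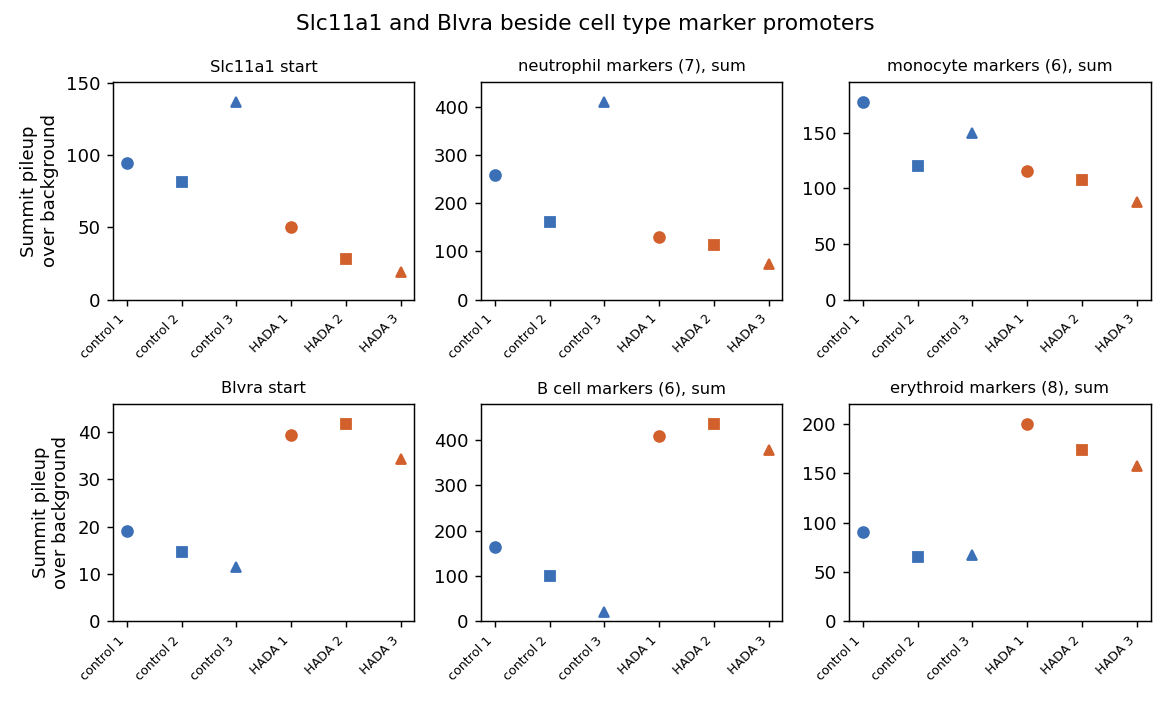
Summit pileup over background per library at the Slc11a1 and Blvra starts and the summed promoter levels of 4 marker lists (points: single libraries, control in blue and HADA in orange). Slc11a1 and the neutrophil sum were both highest in control 3 and lowest in HADA 3. Blvra, the B cell sum (378 to 436 in HADA) and the erythroid sum (158 to 200 in HADA) were higher in each HADA library than in any control. Klf1 alone gave 120 to 153 of that erythroid sum. The T cell, NK cell and platelet sums, not drawn, were apart in the same direction.

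The promoters closest to that of Slc11a1 over the 6 libraries, by Euclidean distance of centred log2 pileups among 11545 gene promoters, were those of Fam217b and Ppp1r3d, which share 1 region (distance 0.32), and Sstr4 (0.43). Sstr4 encodes a somatostatin receptor and Ppp1r3d a subunit that targets protein phosphatase to glycogen.

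Blvra gave the largest rise among the tested member regions. Its start region (chr2:126911979-126913220, summit in an exon, 125 bp into the gene) stood at 18.96, 14.6 and 11.5 times background in control and at 39.3, 41.7 and 34.3 times in HADA. The HADA libraries were all above the controls, and control 3 was the lowest. The means were 15.01 ± 3.76 and 38.4 ± 3.77 (SD, n = 3 each). The centred log2 difference was 1.00 ± 0.20 (SE, limma adjusted p = 0.0078), or 2.00-fold, and without control 3 it was 0.83 (limma adjusted p = 0.0042). On the log2 of the deposited fold it was 0.46 (limma adjusted p = 0.036). The region also lies within 3 kb of a start of the predicted gene Gm75586.

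The interior peaks of Blvra differed between the groups. A region in an intron 9534 bp into the gene and 107 bp from an annotated start (chr2:126921516-126922356) was listed at 15.4, 11.7 and 15.8 times background in the 3 control libraries and in 0 of 3 HADA libraries. A second intronic region, 15854 bp into the gene (chr2:126928140-126928606), was listed in 0 of 3 control libraries and at 6.41, 8.54 and 9.67 times background in HADA. These were the 1 control-only and the 1 HADA-only region among the 15, against 1.88% and 7.01% of all regions. In raw fragments the control site had 26, 24 and 29 and the HADA site 15, 17 and 22, while 7 to 9 fragments were enough for a call at genome-wide background. A missing peak is a height under the caller's limit and not an absence of open chromatin.

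The HADA site of Blvra holds repeated sequence. Of its 6 pieces of 20 bases around the summit, 3 occur once in the genome and 1 occurs 74 times, whereas all 6 pieces of the control site occur once. Reads at the HADA site may therefore be placed less surely. When every library was reduced to its 34045 strongest peaks, no member region was HADA-only.

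**Figure D3:**
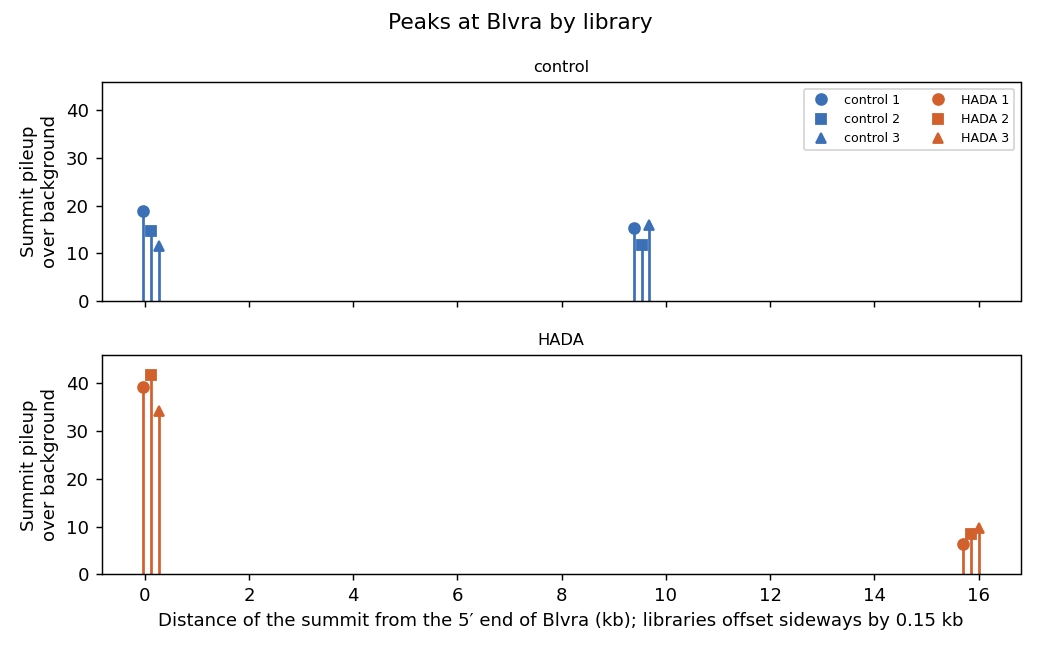
Summit pileup over background (vertical axis, both panels to 1 scale) against distance of the summit from the 5′ end of Blvra in kb, for control above and HADA below, 1 line per library with a sideways offset. The start peak lay between 11.5 and 18.96 in control and between 34.3 and 41.7 in HADA, the peak near 9.5 kb appears only in control and the peak near 15.9 kb only in HADA.

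Blvrb, which reduces biliverdin beta and flavins, rose at its start (chr7:27146578-27147704, summit 5 bp upstream of the gene). The levels were 124, 99.8 and 83.6 times background in control and 198, 220 and 187 times in HADA. The groups were apart, with means of 103 ± 20.5 and 202 ± 17.1 (SD, n = 3 each). On the centred log2 scale the rise was 0.61 ± 0.14 (SE, limma adjusted p = 0.010), or 1.53-fold, and 0.48 without control 3 (limma adjusted p = 0.0056). Without centring it was 0.99. The call was lost without HADA 2 (0.58, limma adjusted p = 0.057), on ranks of the deposited fold (0.31, limma adjusted p = 0.12) and on its log2 (0.097, limma adjusted p = 0.32). A start of Sptbn4, a spectrin gene, lies within 3 kb, so the region cannot be given to Blvrb alone.

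An intronic region of Blvrb, 7052 bp into the gene (chr7:27154036-27154670), was listed at 4.15 times background in control 1, 10.7 in HADA 1 and 8.35 in HADA 3, and in no other library. Its summit surroundings held the antioxidant response element and E-box shown in capitals above, which share bases, and a GATA motif (AGATAA, minus strand). It was the only member region of 15 with the antioxidant response element, which NRF2 can bind, and 8.26% of all regions held it. The E-box was in 3.66% of all regions, the hypoxia response core ACGTG that it contains in 11.6% and the GATA motif in 6.94%. A match is a match of letters within 100 bp of the summit on either strand.

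Marker promoters of lymphoid and erythroid cells were read beside the rise of the biliverdin reductases. All 3 B cell marker promoters tested (Cd79b, Ms4a1, Pax5) rose with a median log2 difference of 1.97, and the 6 markers summed to 20.8 to 163 times background in control and 378 to 436 in HADA. Without control 3, 6 were testable and all rose, with a median of 1.25. Of 5 T cell marker promoters tested, Cd3e and Lck rose and none fell (0 rose without HADA 2, 1 without control 1, control 3, HADA 1 or HADA 3), Cd3d, Cd4 and Cd5 were at −0.31, 0.15 and 0.48 and not called, and Cd8a was listed in no library. The T cell sum ranged from 212 to 290 in control and from 337 to 390 in HADA. Of 2 NK cell promoters tested 0 were called, with sums of 27.9 to 61.01 against 64.1 to 84.9. The platelet list had 1 promoter tested and 0 called, with sums of 9.29 to 14.2 against 18.9 to 22.6 and with Gp9 and Ppbp listed in no library. Of 8 erythroid markers only Klf1 had a promoter peak in all libraries and it rose by 0.64 on the log2 scale (limma adjusted p = 0.0096). The erythroid sum ranged from 65.7 to 90.6 times background in control and from 158 to 200 in HADA, of which Klf1 gave 57.9 to 75.8 and 120 to 153, and Hba-a1 and Hba-a2 were listed in no library. Their part in the Blvra and Blvrb differences was not tested.

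Of the iron regulatory proteins, Aco1 rose and Ireb2 was not called. The Aco1 start (chr4:40142656-40143882, summit in an exon 172 bp into the gene) stood at 220, 156 and 142 times background in control and at 300.4, 299 and 281 times in HADA. The 3 HADA libraries were close together and above the controls, with means of 173 ± 41.8 and 294 ± 10.9 (SD, n = 3 each). Centred on the log2 scale, the difference was 0.41 ± 0.14 (SE, limma adjusted p = 0.036), or 1.33-fold, and 0.29 without control 3 (limma adjusted p = 0.041). Without centring it was 0.79. This call held in 6 of 15 alternatives. It was lost without control 2 (limma adjusted p = 0.054), without HADA 1, 2 or 3 (limma adjusted p = 0.11 to 0.12), with centring on promoters, on the deposited fold (−0.04, the opposite direction) or its rank, without the variance trend (limma adjusted p = 0.069), and with the replicate number in the model.

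Ireb2 (chr9:54770676-54771499, summit in an exon 150 bp into the gene) stood at 78.2, 62.3 and 77.6 times background in control and at 102.5, 85.4 and 91.5 times in HADA. On this scale the HADA libraries lay above the controls, and after centring the groups overlapped. After centring, the log2 difference came to −0.02 ± 0.16 (SE, limma adjusted p = 0.93), without control 3 it was 0.04, and without centring it was 0.36.

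The start of Tfrc, the receptor of iron uptake, was not called. Its start region (chr16:32427299-32428478, summit in an exon 293 bp into the gene) stood at 93.6, 73.0 and 76.0 times background in control and at 135, 123 and 109 times in HADA. All HADA libraries were above all controls, with means of 80.9 ± 11.1 and 123 ± 12.98 (SD, n = 3 each). The centred log2 difference was 0.23 ± 0.13 (SE, limma adjusted p = 0.18). Without centring it was 0.60 and past the threshold (limma adjusted p = 0.039). On the deposited fold, which divides by the local background, it was −0.18. The local background itself, relative to the genome-wide one, was 8.32 to 9.33 in HADA against 4.62 to 6.44 in control.

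The ferritin starts were not called in either direction. Fth1 (chr19:9959630-9960752, summit in an exon 133 bp from an annotated start) had the highest mean start level of the genes in control, at 243, 175 and 336 times background, and stood at 239, 200.9 and 185 times in HADA. Over background the groups overlapped, and after centring the HADA libraries were all below the controls. The centred log2 difference was −0.60 ± 0.24 (SE, limma adjusted p = 0.065). It was −0.36 and past the threshold without control 3 (limma adjusted p = 0.030), the library with the highest Fth1 level. On the deposited fold it was 0.35, the opposite direction. A second Fth1 region, 1680 bp from an annotated start and beyond the gene, was listed in control 3 alone, at 71.6 times background.

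Ftl1 (chr7:45108421-45109878, summit in an exon 112 bp into the gene) stood at 116, 91.0 and 136 times background in control and at 148, 122 and 108 times in HADA, and the groups overlapped. In limma the centred log2 difference was −0.23 ± 0.19 (SE, limma adjusted p = 0.33), and it was −0.09 without control 3 and 0.14 without centring. The 50 bases at this summit occur 5 times in the genome, and none of the 6 pieces of 20 bases around it is found once, so reads of Ftl1 and its copies cannot be told apart and these values are uncertain. A further region, 1231 bp from an annotated start and beyond the end of the gene, was listed in control 2 and control 3 at 30.2 and 36.1 times background and in no HADA library.

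Iron export had no value over all 6 libraries, because the Slc40a1 region (chr1:45963933-45965251, summit in an exon 788 bp into the gene) had no peak in HADA 3. It stood at 18.96, 9.25 and 15.3 times background in the controls and at 6.84 and 5.52 times in HADA 1 and HADA 2. The 2 HADA values were below every control, from 16 and 11 fragments against 32, 19 and 28. In HADA 3 a summit of 3.52 times background was the lowest that could be called, so a small peak there would not be listed. With HADA 3 left out the centred log2 difference came to −1.57, but that choice removes the library in which no peak was listed, so it is given with no test. Ferroportin is the only known iron exporter of mammalian cells.

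At Spic no summit lay in the gene or within 3 kb of a start. The nearest summit was 3219 bp from the gene in control 2, with 9 fragments, and 25647 to 26099 bp away in the other libraries. The smallest summit callable at background was 3.52 to 4.37 times background.

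The genes were then grouped by role, and uptake was set against storage within each library. The centred log2 level of Tfrc minus the mean of Fth1 and Ftl1 was −0.84, −0.79 and −1.49 in control and −0.47, −0.34 and −0.37 in HADA. No HADA library overlapped the controls, and the means differed by 0.65 (two-sided exact permutation p = 0.1, the smallest that 3 against 3 libraries allow). Since the scale of a library cancels in this contrast, it was the same without centring. It was 0.42 without control 3, and on the deposited fold over local background it was −0.43, the opposite direction. At Fth1 the local background was 15.4 to 22.9 times the genome-wide one in HADA and 18.7 to 48.6 times in control. The storage term includes Ftl1, whose reads cannot be told apart from those of its copies, so the contrast shares that uncertainty.

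The other roles were compared in the same way. The biliverdin reductase starts together were 0.81 higher in HADA on the centred log2 scale, and the starts of the iron regulatory proteins 0.20 higher, each with groups apart and a two-sided exact permutation p of 0.1. The ferritin starts were −0.42 in HADA relative to control with overlapping groups (two-sided exact permutation p = 0.2), −0.23 without control 3 and −0.04 without centring. These ferritin values include Ftl1 and share its uncertainty. The starts of the iron regulatory proteins were 0.04 higher when centred on promoters and 0.58 higher without centring, and in the main fit Aco1 gave that difference, since Ireb2 was at −0.02. On the deposited fold the regulatory proteins were −0.06 and the ferritins 0.26, both in the opposite direction, and the biliverdin reductases stayed higher at 0.28. Over all 6 libraries export and Spic gave no value.

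**Figure D4:**
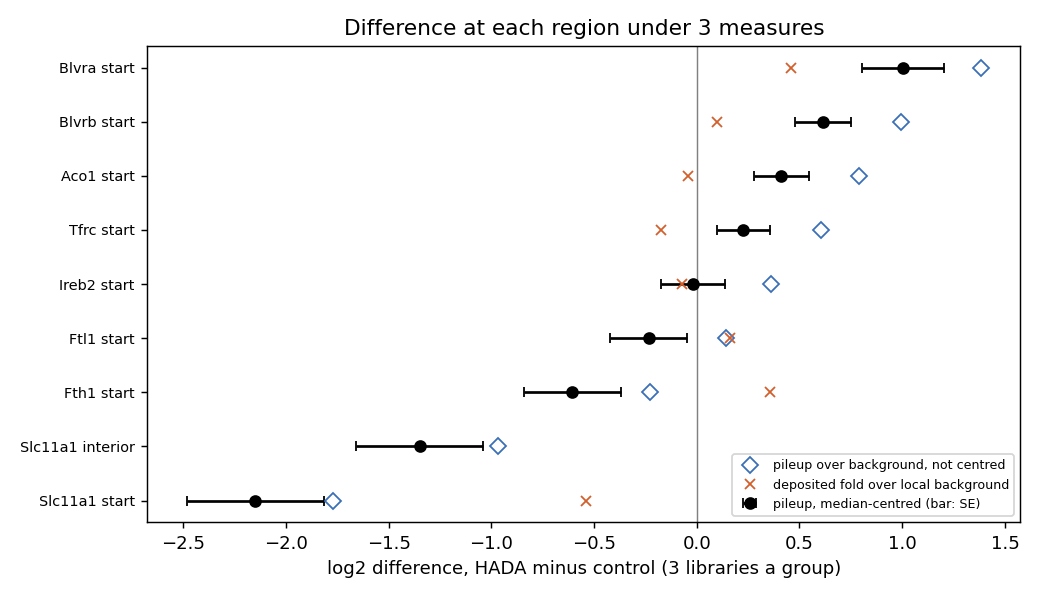
Log2 difference, HADA minus control, at each tested region on 3 measures: centred pileup with its SE (black), pileup over genome-wide background (blue diamonds) and the deposited fold over local background (orange crosses, not drawn for the interior Slc11a1 region). Blvra and Blvrb stay above 0 and Slc11a1 below 0 on each measure drawn, while Tfrc, Aco1, Ireb2, Fth1 and Ftl1 lie on different sides of 0 on different measures.

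The order of the start levels differed between groups. In control it ran from Fth1 (251 times background) through Aco1 (173), Ftl1 (114), Slc11a1 (104), Blvrb (103), Tfrc (80.9) and Ireb2 (72.7) to Blvra (15.01) and Slc40a1 (14.5). Only Aco1 and Ftl1, and Ireb2 and Blvra, were neighbours whose ranges did not overlap. In HADA it ran from Aco1 (294) through Fth1 (208), Blvrb (202), Ftl1 (126), Tfrc (123), Ireb2 (93.1) and Blvra (38.4) to Slc11a1 (32.3), with Slc40a1 below it in both libraries that listed it. Here Fth1 and Blvrb, Ftl1 and Tfrc, and Blvra and Slc11a1 overlapped with each other. Among all shared regions, the Aco1 and Fth1 starts were at percentiles 98.0 and 97.9 of mean level and the Blvra start at percentile 40.3.

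The 10 genes held 12, 12 and 13 peaks in the controls and 12, 11 and 11 in HADA. Per 10000 peaks of the library this was 3.21 ± 0.53 in control and 2.53 ± 0.15 in HADA (SD, n = 3 each), with groups apart and a two-sided exact permutation p of 0.1. The difference of −0.67 was −0.37 without control 3 and −0.40 with a window of 1 kb.

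The C/EBP motif TTGCNNAA, bound by factors of the myeloid lineage, was in 3 of 15 member regions, against 8.70% of all regions. These were the Slc40a1 start and the regions beyond the ends of Fth1 and Ftl1, and none of the 3 was listed in all libraries. A CTCF match was in 2 (the starts of Tfrc and Blvrb) against 6.06%. The PU.1 motif GAGGAAGT, which SPIC can also bind, and the AP-1 motif TGANTCA were in 0, against 4.15% and 5.51%.

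Beyond the 10 genes, a list of 43 further iron and heme genes was read from the same fit. Of these 43, 33 had a promoter region in all libraries, 7 rose, 5 fell and 21 were not called, with a median log2 difference of 0.11. These were 21.2% higher and 15.2% lower, against 21.8% and 8.32% of protein-coding promoters. The balance depended on the scaling, with 11 higher and 2 lower without centring, 12 and 6 with quantile normalisation, 5 and 9 with centring on promoters and 3 and 0 on the deposited fold or its rank. It also moved with single libraries, to 4 and 3 without HADA 1 or HADA 3 and 5 and 2 without HADA 2. Without control 1 it was 10 and 5, without control 2 it was 6 and 6, and without control 3 it was 7 and 6 of 35. Another 5 had a promoter peak in some libraries and 5 (Heph, Cp, Hamp, Ftmt, Hpx) in none. Of 11 tested genes of uptake and trafficking, 5 rose (45.5%) and 1 fell (9.09%). Those that rose numbered 3 without HADA 1, without HADA 2, without HADA 3, with the replicate block and with centring on promoters, 1 on the deposited fold or its rank and 8 with quantile normalisation. Those that rose were the endosomal iron transporter Slc11a2 (0.59, limma adjusted p = 0.021), the ferrireductase Steap3 (0.98, limma adjusted p = 0.0087), the metal importers Slc39a14 (0.80, limma adjusted p = 0.010) and Slc39a8 (0.94, limma adjusted p = 0.0070), and the heme transporter Slc48a1 (0.60, limma adjusted p = 0.039). The Slc48a1 call held in 6 of 15 alternatives, with 0.40 without control 2 (limma adjusted p = 0.080), and the Slc11a2 call in 8, being lost without HADA 1, 2 or 3. Steap3 stood at 36.7, 21.9 and 17.5 times background in control and at 62.8, 61.3 and 62.0 times in HADA, with no overlap. Lrp1, a receptor for heme bound to hemopexin, fell by 1.22 (limma adjusted p = 0.0065).

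Heme oxygenase 1 (Hmox1), the inducible enzyme that opens the heme ring ahead of biliverdin reductase A, fell by 1.11 on the log2 scale (limma adjusted p = 0.018). Its promoter stood at 23.1, 20.4 and 38.8 times background in control and at 15.4, 15.6 and 16.7 times in HADA. Without control 3 it was −0.82 (limma adjusted p = 0.011), and the call was lost without HADA 1 (limma adjusted p = 0.059) and without HADA 2 (limma adjusted p = 0.069). The constitutive enzyme Hmox2 was 0.39 higher and not called (limma adjusted p = 0.073), but passed the threshold without centring (0.77, limma adjusted p = 0.010) and without control 1 (0.55, limma adjusted p = 0.019). In heme synthesis, Cpox rose by 1.21 (limma adjusted p = 0.0063), Alas1, the first enzyme, fell by 0.74 (limma adjusted p = 0.021), and the other 6 were not called. The Alas1 call was lost without HADA 1, HADA 2 or HADA 3 (limma adjusted p = 0.078, 0.053 and 0.081). Of the 4 regulators, Usp24 rose by 0.62 (limma adjusted p = 0.016, lost without HADA 1 or HADA 3), and Fbxl5, Bach1 and Nfe2l2, which encodes NRF2, were not called at 0.05, −0.08 and −0.43.

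Of 5 plasma and granule proteins that bind iron, hemoglobin or heme, 2 were tested and both fell. Haptoglobin (Hp), which neutrophils also store, fell by 2.03 (limma adjusted p = 0.0068), or by 1.64 without control 3, and transferrin (Trf) by 0.84 (limma adjusted p = 0.014, lost without HADA 2 or HADA 3). Lactoferrin (Ltf) and lipocalin 2 (Lcn2), both neutrophil granule proteins, each had a promoter peak in 2 control libraries and in 0 HADA libraries. The summed level of this list ranged from 70.6 to 161 times background in control and from 34.7 to 48.7 in HADA, beside the neutrophil markers given above. None of the 5 tested genes of mitochondrial iron and iron-sulfur clusters was called, with Iscu, an assembly scaffold, nearest to the threshold at −0.60 (limma adjusted p = 0.0501). In 7 alternatives 1 gene of this group was called lower, and 1 was called higher without centring and with quantile normalisation. Without centring, all 12 called genes of the further list kept their direction, and Hmox1, Alas1 and Trf were no longer called. On the deposited fold and on its rank only Cpox kept its call, and Alas1 turned to 0.30 and 0.42.

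**Figure D5:**
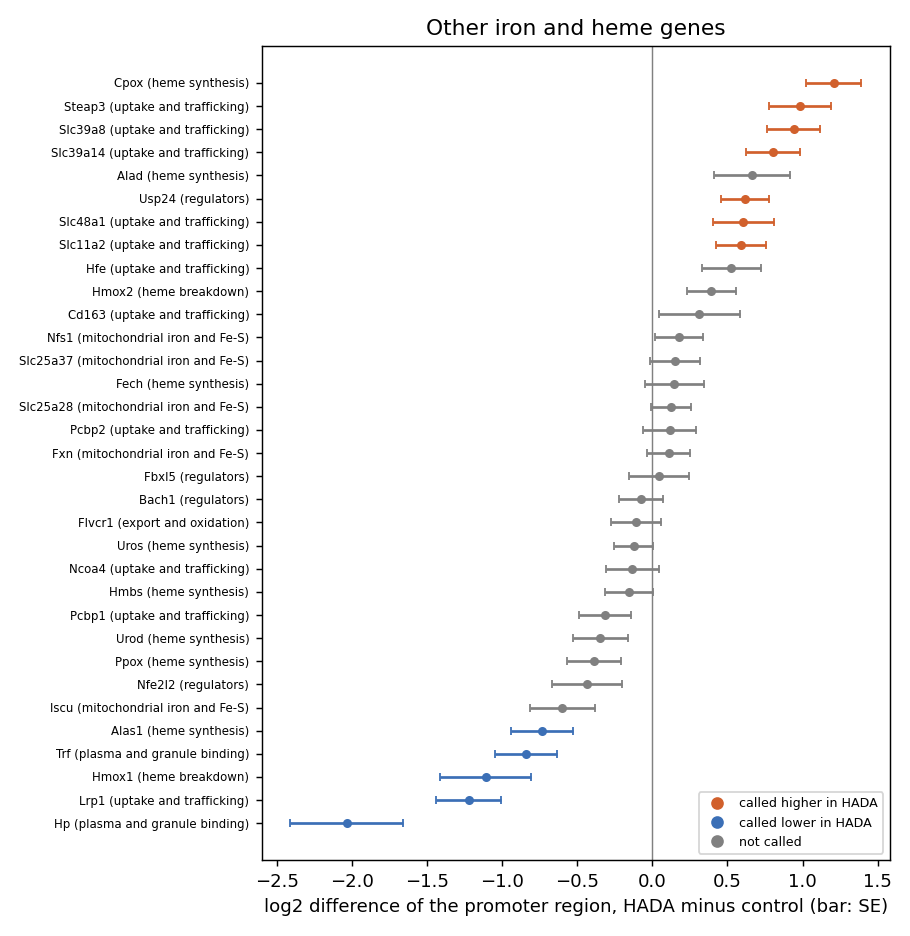
Centred log2 difference (HADA minus control, bars SE) of the promoter regions of 33 further iron and heme genes, with 7 called higher in orange, 5 called lower in blue and 21 not called in grey. Cpox has the largest rise at 1.21 and Hp the largest fall at −2.03.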

How the data were processed

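ATAC-seq peak lists of 3 control and 3 HADA libraries were analysed. The authors used Trimmomatic for trimming, Bowtie2 for alignment to GRCm39, Picard for removing duplicate reads and MACS2 for calling peaks in each library. MACS2 options and any Tn5 shift are not given in the sources used here. For each peak the deposited lists hold the fold over local background and the p- and q-values as −log10. The deposited score, a whole number, repeats the q-value column at 10 times its size. The study's count matrix was not used here.

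Peaks on the 21 main chromosomes that shared 1 bp were merged into regions. The summit pileup was solved from fold and p-value, since MACS2 computes the fold as (pileup + 1) / (background + 1) and p from a Poisson tail, and the solution returned the deposited values for 100% of peaks. Background pileup stands for depth, and total reads are unknown. Genes came from the GENCODE mouse annotation of GRCm39. The build was checked: 0 peaks ended beyond a chromosome, and 9.54% of summits lay within 100 bp of a gene start against 0.82% after a shift of 100 kb. Sequences were read from the GRCm39 genome.

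log2 pileups of the shared regions were compared with limma 3.58.1 in R 4.3.3 (lmFit, eBayes with trend, no block). A run of this fit on simulated data changed few regions, equally in both directions. It therefore did not test the centring where many regions differ, as here. Single values per library were tested by exact permutation, two-sided. The start region of a gene was its tallest region with a summit within 3 kb of an annotated start. All 10 genes were named, and of the further iron genes those called. For the start with the smallest p, the 3 nearest promoters were named. Members, gene lists, marker lists and motifs were chosen with earlier results of these data known, and 1 B cell marker is not reported here. Replicate numbers were not taken as pairs in the main fit. Pileup deviations of same-numbered libraries correlated at −0.08, 0.08 and −0.38, and those of differently numbered ones at −0.47 to 0.49. With 3 libraries a group these correlations cannot exclude a pairing. Alternatives changed the scaling, the measure, the peak threshold, the number of peaks, the window, the variance trend, the block and the libraries.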

Additional observations from a re-analysis of the deposited data

How the results depend on the processing

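Of the member results, Blvra and Slc11a1 starts kept direction and call in 15 of 15 alternatives, Blvrb its direction in 15 and its call in 12, and Aco1 its call in 6. The window of 1 kb left every start region as it was and is not among the 15. Regions called higher numbered 3, but 1 on ranks of the deposited fold and 1 on its log2, and 1 to 3 when a library was left out, with 1 without HADA 2. They numbered 2 without the variance trend and 4 without centring. Regions called lower numbered 2, but 1 on ranks, 1 on the log2 fold, 1 with a −log10 q of at least 5 and 1 with equal numbers of peaks. They numbered 3 with quantile normalisation and with centring on promoters, and 2 to 3 when a library was left out. With equal numbers of peaks, 0 regions were HADA-only and 2 control-only, and control-only regions numbered 1 to 2 when a library was left out, with 2 without control 1. The replicate number as a block gave 2 higher and 2 lower (Aco1 limma adjusted p = 0.13) and changed no other call of a member start. Calls over all shared regions moved too, from 4417 higher and 5862 lower of 23970 in the main fit. They were 1835 and 1398 on ranks and 1317 and 1723 on the log2 fold. Leaving out a library gave 1379 to 5446 higher and 2946 to 6426 lower of 24159 to 27421 regions, both fewest without HADA 2.

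On ranks of the deposited fold the difference reversed for Tfrc, alone as uptake (−0.24), Fth1 (0.48), Ftl1 (0.23), storage (0.36), Ireb2 (0.021) and uptake minus storage (−0.59). On the log2 fold it reversed for Tfrc and uptake (−0.18), Fth1 (0.35), Ftl1 (0.16), storage (0.26), Aco1 (−0.044), the iron regulatory proteins (−0.059) and uptake minus storage (−0.43). These measures divide by local background. Relative to the genome-wide one, it was higher in HADA at the starts of Tfrc, Aco1, Ireb2, Blvra and Blvrb. Blvra and Blvrb did not reverse on either measure. Without centring Ftl1 was 0.14 and Ireb2 0.36, and with quantile normalisation Ireb2 was 0.033. Leaving out a library gave −0.070 to 0.073 for Ireb2, above 0 without control 3 (0.042) and without HADA 2. Fth1 was called lower in 4 of 15 alternatives and Tfrc higher in 1. The cause of these changes was not tested.

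Peak lists show no value below the caller's limit, so Slc40a1, the Blvra introns and Spic are limited by depth, and intervals for counting error were not computed because total reads are unknown.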
